A study of Mus musculus with 56 samples.

Results

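Regulatory T cells (Tregs) of visceral adipose tissue (VAT) were cultured for 3 days with or without interferon alpha (IFNa), and the comparison of those cultures is described here across all expressed genes. The count-table columns of the 2 IL-33+IFNa cultures were set against those of the 3 IL-33 cultures, which are 5 of the 56 libraries of a mouse series on Treg transcription in obesity. Tregs are a class of CD4 T cell, defined by the factor Foxp3, that holds immune responses in check. The IL-33+IFNa cultures received IFNa at 50 ng/ml together with IL-33 (10 ng/ml) and IL-2 (2000 U/ml). The IL-33 cultures received the same doses of IL-33 and IL-2 and 0 ng/ml of IFNa. Both groups came from C57BL/6 mice that carried PPARgamma-tdT KI/KI together with Foxp3-GFP KI/y, aged 8 to 10 weeks, whose VAT Tregs had been expanded with 2 injections of IL-33. In these mice a red reporter (tdT) marks expression of PPARγ, the nuclear receptor typical of VAT Tregs, and GFP marks expression of Foxp3. The cells put into culture were positive for the PPARγ reporter, and the cells sequenced were sorted for Foxp3/GFP after culture, 1000 cells per library. Every measurement below was therefore made in cells selected for the Foxp3 reporter, and cells that had lost it were not measured. Each culture also contained IL-33 and IL-2, so no library shows these cells without those cytokines. The labels do not say whether the cultures came from separate mice or separate wells, so the spread behind each p-value is that between these 5 libraries and may be technical.

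Type I interferons bind a receptor made of Ifnar1 and Ifnar2, whose kinases Jak1 and Tyk2 phosphorylate Stat2 and other STAT factors. With Irf9, Stat2 is part of a complex that binds the interferon-stimulated response element in promoters of antiviral genes, while other STAT complexes bind gamma-activated sites. Usp18 and Socs1 dampen the receptor. In VAT, Tregs with PPARγ, Gata3 and the IL-33 receptor accumulate with age and restrain inflammation of the fat.

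The short core of the response element is shown in 4 promoters, those of the 4 named genes of smallest p among the genes called higher whose window held it. Of the 15 top-ranked genes called higher, 12 had a promoter in the table and 7 of these held the core; Oasl2, Irf7, Oasl1, Slfn1 and Rnf213 did not. Sequences are from RefSeq on GRCm38.p6 (the mm10 build), 250 bases before to 50 bases after the gene start, 5′ to 3′ on the gene's strand. Capitals mark GAAANNGAAA, the core, on either strand. The windows are chr19:34583279-34583578 on the plus strand for Ifit3, chr12:26456403-26456702 on the minus strand for Rsad2, chr4:156200769-156201068 on the minus strand for Isg15 and chr1:173491269-173491568 on the minus strand for Ifi206.
Ifit3: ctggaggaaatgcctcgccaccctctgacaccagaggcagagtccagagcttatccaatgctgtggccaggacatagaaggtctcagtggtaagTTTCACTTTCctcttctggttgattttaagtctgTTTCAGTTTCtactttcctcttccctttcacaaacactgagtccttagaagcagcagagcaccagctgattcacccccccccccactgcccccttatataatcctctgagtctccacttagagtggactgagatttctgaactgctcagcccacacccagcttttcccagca
Rsad2: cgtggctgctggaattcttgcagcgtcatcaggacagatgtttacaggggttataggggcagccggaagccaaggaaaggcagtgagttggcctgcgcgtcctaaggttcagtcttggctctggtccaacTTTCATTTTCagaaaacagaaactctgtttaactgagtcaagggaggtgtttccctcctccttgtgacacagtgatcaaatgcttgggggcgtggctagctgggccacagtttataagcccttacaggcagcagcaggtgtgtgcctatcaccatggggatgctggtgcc
Isg15: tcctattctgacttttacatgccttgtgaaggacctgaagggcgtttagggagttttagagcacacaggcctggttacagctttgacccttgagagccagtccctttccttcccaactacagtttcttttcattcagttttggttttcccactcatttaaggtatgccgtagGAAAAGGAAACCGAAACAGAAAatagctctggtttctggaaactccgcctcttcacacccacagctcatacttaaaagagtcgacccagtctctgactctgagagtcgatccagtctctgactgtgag
Ifi206: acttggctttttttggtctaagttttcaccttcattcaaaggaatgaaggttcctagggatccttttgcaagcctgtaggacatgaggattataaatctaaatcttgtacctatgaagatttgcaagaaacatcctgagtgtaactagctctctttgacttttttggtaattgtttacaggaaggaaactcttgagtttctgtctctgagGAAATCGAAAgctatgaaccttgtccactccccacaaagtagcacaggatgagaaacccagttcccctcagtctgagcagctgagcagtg
In the Ifit3 promoter the core occurred 2 times, starting 156 and 122 bases before the gene start. In Isg15 it occurred 3 times in overlapping copies that started 78, 72 and 66 bases before the start. Rsad2 and Ifi206 each held 1 copy, 120 and 40 bases before the start. A promoter was found for 1032 of the 1342 genes called higher with IFNa, and 94 of these (9.11%) held the core. It was in 28 of the 1074 promoters of genes called lower (2.61%), in 3.45% of promoters of genes not called, and in 3.99% of all 27025 promoters of the table. Among genes called higher by at least 4-fold, a set chosen after the values were seen, 35 of 110 promoters held it (31.8%). The gamma-activated site TTCNNNGAA, which reads the same on both strands and whose closing GAA can also open the core, was in 10.8% of promoters of genes called higher, 7.26% of those called lower, 8.04% of those not called, 8.18% of those higher by at least 4-fold, 8.25% of all genes tested and 9.55% of all promoters. These are matches of letters in a fixed window and were not tested.

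Total counts were 5408696 and 7712304 in the IL-33+IFNa libraries, against 6626566, 8764390 and 6578116 in the IL-33 libraries. The floor of detection was set at 3 counts, which equalled 0.342 to 0.562 CPM (counts scaled to the library size); floors and intervals cover counting error only. Across genes, log CPM correlated at 0.980 within the IL-33+IFNa pair and at 0.982 to 0.984 within the IL-33 libraries, against 0.945 to 0.947 between the groups (Pearson, as a description). Treg markers were present in all 5 libraries: Foxp3, Il2ra, Ctla4, Ikzf2, Cd4 and Cd3e were at 307 CPM or more throughout. Most defining markers of other cells were at or near 0, with the exceptions given here. C1qa, C1qb, C1qc, Cd14 and Fcgr1 of macrophages, Itgax of dendritic cells, Ncr1 of natural killer cells and Lep of adipocytes had no count in any library. Summed over its 11 genes, the macrophage list was at 3.34 to 4.68 CPM with IFNa, against 7.23 to 12.9 CPM with IL-33 alone, nearly all from Cd68, which was called lower (-1.62, adjusted p = 0.00113). The granulocyte and mast cell list of 7 genes summed to at most 0.187 CPM with IFNa, against 1.25 to 1.94 CPM with IL-33 alone; Ly6g had no count with IFNa, against 1.79, 1.03 and 1.51 CPM with IL-33 alone, and was called lower (adjusted p = 0.00362). The 7 natural killer and CD8 T cell genes summed to 43.3 to 44.4 CPM with IFNa, against 32.7 to 35.01 CPM with IL-33 alone, nearly all from Cd8b1, which did not pass (adjusted p = 0.0583). The 8 B cell genes summed to 4005 to 4046 CPM with IFNa, against 3414 to 4304 CPM with IL-33 alone, and Ighm made up nearly all of this while Ms4a1 and Pax5 were at most 0.228 CPM in any library. Pecam1, an endothelial marker that T cells also carry, lay between 165 and 188 CPM with no call. The dendritic cell gene Zbtb46 was at 9.92 and 11.6 CPM with IFNa, against 5.36, 5.59 and 4.07 CPM with IL-33 alone, and was called higher; without IL-33+IFNa culture 2 its adjusted p was 0.0809. Of the B cell genes, Cd79b was lower with IFNa, at 47.2 and 40.5 CPM with IFNa, against 64.2, 69.8 and 58.6 CPM with IL-33 alone; without IL-33+IFNa culture 2 its adjusted p was 0.0681. The part of other cells in the results below was not tested. Cd68 did not pass in the 56-library fit. Ly6g, Zbtb46 and Cd79b did not pass in the 56-library fit.

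PPARγ was the reporter used to choose the cells, and its transcript was low after culture. Pparg was at 8.05 and 6.42 CPM in the IL-33+IFNa libraries, against 5.96, 4.22 and 3.91 CPM in the IL-33 libraries. On 1 common scaling of all 56 libraries, Pparg lay between 7.54 and 9.08 CPM in the IL-33+IFNa cultures and between 4.58 and 6.84 CPM in the IL-33 cultures, while the 25 VAT Treg libraries taken from mice had 18.1, 92.4 and 128 CPM as lowest, median and highest. Areg, a tissue-repair growth factor gene of VAT Tregs, was likewise at 13.8 to 14.99 CPM in the IL-33+IFNa cultures and 19.8 to 41.3 CPM in the IL-33 cultures, against a median of 1193 CPM in the VAT libraries. Il1rl1, the IL-33 receptor gene, was at 813 to 847 CPM in the IL-33+IFNa cultures and 885 to 983 CPM in the IL-33 cultures, against a median of 806 CPM in the VAT libraries. Those VAT libraries came from another mouse line, labelled Tg+, and were not cultured. They pooled mice without a diet label, mice on normal diet (NCD) and mice on high-fat diet (HFD), sampled at several weeks. Their lowest, median and highest values therefore mix diets and times. For these reasons the levels are given side by side and not tested.

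Of 55011 gene symbols, 12604 had enough counts to be tested, and 2732 of them (21.7%) passed a Benjamini-Hochberg adjusted p of 0.05 in edgeR's quasi-likelihood test. With IFNa 1342 genes were higher (10.6%) and 1390 were lower (11.0%), and 381 and 427 of these changed at least 2-fold. The median log2 fold change over all genes tested was 0.01. The 10.6% and 11.0% are the shares to set beside each count of called genes in a list below. Genes past the threshold are called higher or lower below, and every log2 fold change is IL-33+IFNa over IL-33 alone, given with its standard error. A fit of all 56 libraries together, in which the spread came from all 20 groups of the series, called 720 genes, 422 higher and 298 lower; 711 of the 2732 genes were called there in the same direction and 0 in the other. Its counts are given beside each gene group as the 56-library fit, with the named genes that passed in the fit of the 5 cultures and not there. In bulk libraries, fewer cells with a transcript and less of it per cell cannot be told apart.

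**Figure D1:**
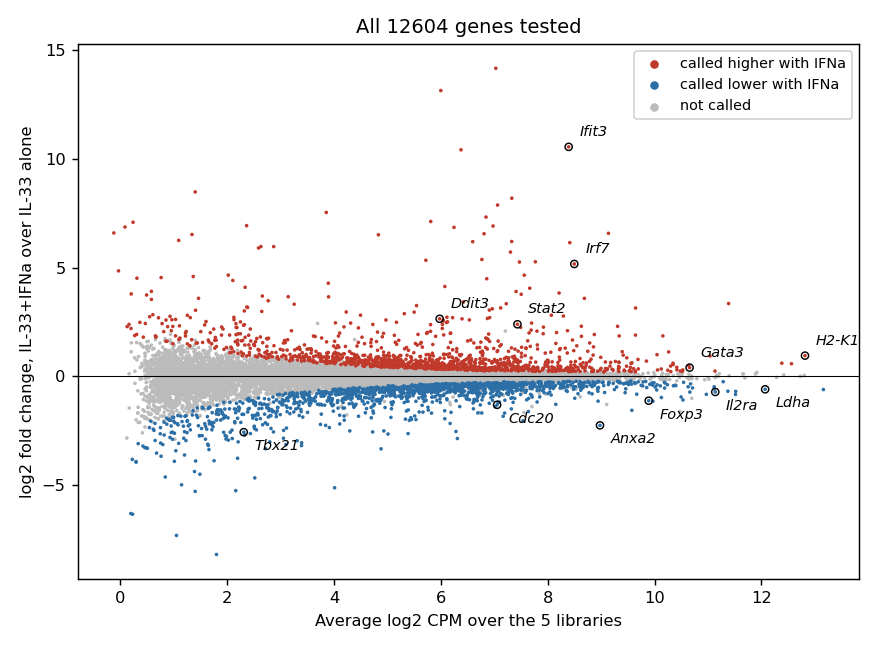
Each point is 1 of the 12604 genes tested: the horizontal axis is its average log2 CPM over the 5 libraries and the vertical axis its log2 fold change, IL-33+IFNa over IL-33 alone, with called genes in colour. The largest changes were increases, such as Ifit3 at 10.55, which rests on 12 counts in all over the IL-33 libraries. For genes with fewer counts there, such as Ifit3b with 0, the fitted size is not a measured fold.

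**Figure D2:**
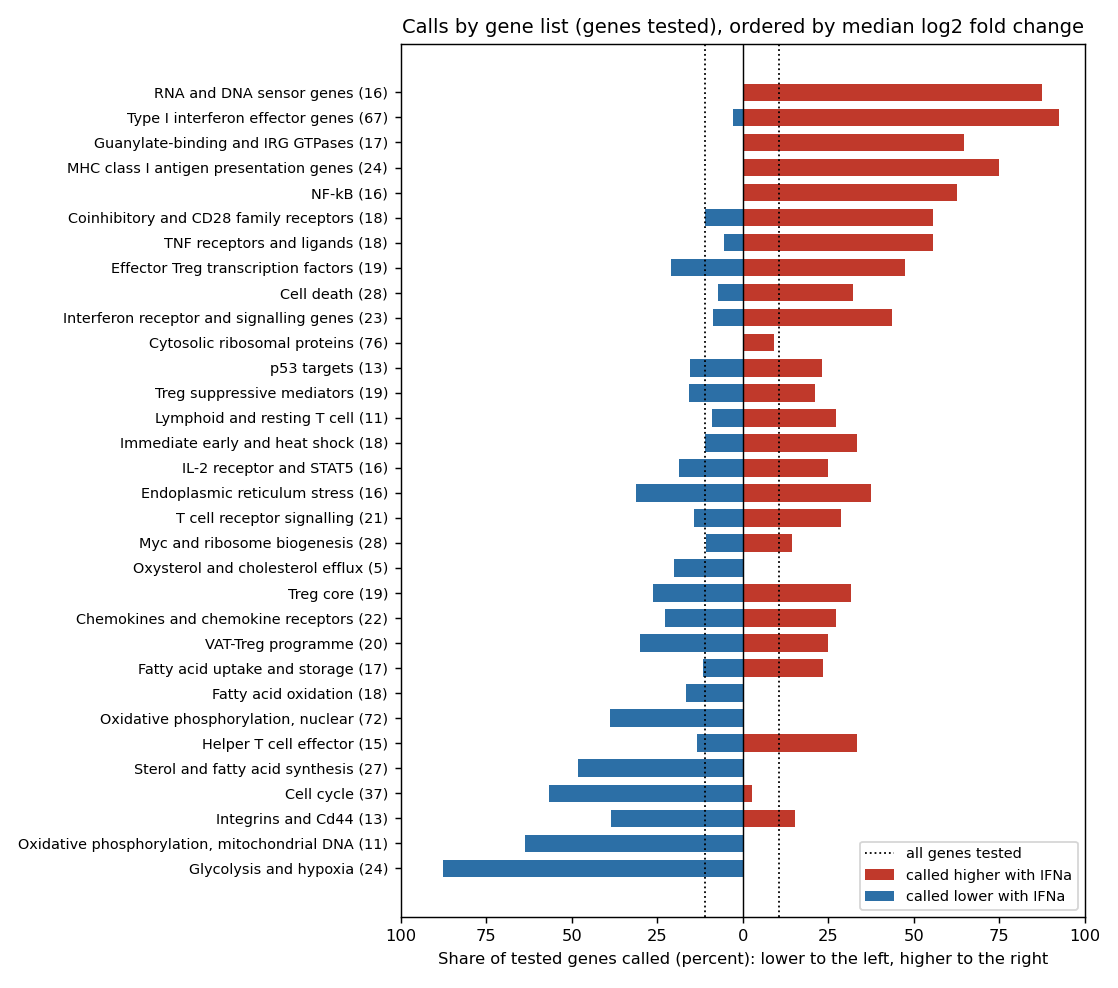
Bars give the percentage of each gene list called higher (right) and lower (left) with IFNa, with the number of genes tested in brackets; dotted lines mark 10.6% and 11.0%, the shares over all genes tested. Lists are ordered by median log2 fold change. From the top come sensor, interferon effector, guanylate-binding and immunity-related GTPase, and MHC class I genes, with glycolysis genes at the bottom.

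Of the receptor genes Ifnar2 rose and Ifnar1 did not pass, while the downstream factors Stat2, Irf9 and Irf7 rose and Irf1 and Irf8 fell. Of 23 genes of the interferon receptor and its signalling, 10 were called higher and 2 lower, with a median log2 fold change of 0.17, against 0.01 over all genes; the 56-library fit called 6 higher and 1 lower. Ifnar1, at 196 and 181 CPM with IFNa, against 202, 202 and 219 CPM with IL-33 alone, did not pass (-0.14 ± 0.09, edgeR adjusted p = 0.265). Ifnar2, the second receptor chain, was at 111 and 110.1 CPM with IFNa, against 84.6, 86.6 and 88.99 CPM with IL-33 alone, a change of 0.35 ± 0.10 (adjusted p = 0.0124); without IL-33+IFNa culture 1 or 2 its adjusted p was 0.0543 or 0.057. The kinase genes Jak1 (0.02 ± 0.09) and Tyk2 (0.13 ± 0.12) did not pass either. Ifnar2 did not pass in the 56-library fit.

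Stat2 was at 340.3 and 334 CPM in the IL-33+IFNa libraries, against 68.1, 63.3 and 60.4 CPM in the IL-33 libraries, so that every IFNa library was several times above every library without IFNa (2.40 ± 0.09, adjusted p = 1.85e-14). Irf9, the DNA-binding partner of Stat2, rose by 1.38 ± 0.09. It was at 322 and 326 CPM with IFNa, against 116, 133 and 123 CPM with IL-33 alone. Its exons overlap those of Rnf31, whose mean was 99.4 CPM. Irf7, the factor that amplifies interferon production, had 891 and 848 CPM in the IL-33+IFNa libraries, against 21.5, 26.3 and 24.2 CPM in the IL-33 libraries. That is a change of 5.17 ± 0.10, with no overlap between the groups (adjusted p = 2.25e-19). Its exons share bases with Phrf1 on the other strand, whose mean was 107 CPM, above Irf7 in each IL-33 library. The library kit does not mark strand.

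Among the brakes on the pathway, Usp18, which displaces Jak1 from Ifnar2, was at 845 and 829 CPM in the IL-33+IFNa libraries, against 9.54, 13.2 and 12.2 CPM in the IL-33 libraries (6.15 ± 0.11, adjusted p = 1.13e-19). Socs1, a second brake, lay far apart in the IFNa libraries: it was at 362 and 199 CPM with IFNa, against 362, 382 and 430.3 CPM with IL-33 alone, and it did not pass (-0.49 ± 0.31, adjusted p = 0.386). Without IL-33+IFNa culture 1 its log2 fold change was -0.98 (adjusted p = 1.92e-06), and limma voom gave an adjusted p of 0.0146. The 2 signalling genes that fell were the interferon regulatory factors Irf8, at 13.1 and 17.8 CPM with IFNa, against 44.5, 59.8 and 80.1 CPM with IL-33 alone (-1.97 ± 0.26), and Irf1, at 170.3 and 184 CPM with IFNa, against 247, 246 and 242 CPM with IL-33 alone (-0.47 ± 0.08). Irf1 did not pass in the 56-library fit.

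Most effector genes rose. Of 67 type I interferon effector genes, 62 were higher and 2 lower with a median of 2.39, and 59 of the 62 were at least 2-fold higher, 41 at least 4-fold and 18 at least 16-fold. The 56-library fit called 60 higher and 1 lower. The list was chosen with earlier results of these data known. Members without a count with IL-33 alone, such as Ifit3b, could be tested only through the IFNa libraries and could not be called lower. Ifit3, which encodes a tetratricopeptide protein that helps bind viral RNA, was at 839 and 843 CPM in the IL-33+IFNa libraries, against 0.298, 0.798 and 0.452 CPM in the IL-33 libraries. All 3 libraries without IFNa were near the floor of detection for it, and the fitted change was 10.55 ± 0.15 (adjusted p = 5.50e-21). Ifit3b, a near copy of Ifit3, was at 348 and 309.6 CPM with IFNa and had no count with IL-33 alone, so it was at least 795-fold higher when set against a floor of 3 counts per library. How reads that match both copies were counted is not stated. Ifi44, with 161 and 162 CPM with IFNa and no count with IL-33 alone, was by the same measure at least 391-fold higher. Mx1, a dynamin-like antiviral GTPase, had 240.1 and 180.5 CPM with IFNa, against 3 counts in all with IL-33 alone, a ratio of 1514 with a 95% counting interval of 518 to 7346.

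Others started from a measurable level. Isg15, the ubiquitin-like modifier that is attached to proteins during antiviral responses, was at 377 and 394 CPM in the IL-33+IFNa libraries, against 7.002, 7.76 and 7.08 CPM in the IL-33 libraries (5.72 ± 0.11, adjusted p = 2.84e-19). Rsad2, which encodes viperin and makes a chain-terminating nucleotide, was at 344 and 324 CPM with IFNa, against 1.79, 1.48 and 0.903 CPM with IL-33 alone. Also higher were 2 genes of the oligoadenylate synthetase family, known for activating RNase L: Oasl2 was at 404 and 399.95 CPM with IFNa, against 1.49, 1.60 and 0.903 CPM with IL-33 alone, and Oas2 at 244 and 234 CPM with IFNa, against 2.38, 3.88 and 3.31 CPM with IL-33 alone. Rnf213, a large ubiquitin ligase, was at 719 and 628 CPM with IFNa, against 42.9, 50.98 and 47.1 CPM with IL-33 alone. Slfn1, a schlafen family gene, was at 438 and 456 CPM with IFNa, against 17.9, 15.97 and 19.6 CPM with IL-33 alone. For each of these 6 genes the groups did not overlap, as the rule that chose them required. The plot of the top-ranked genes shows each library.

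**Figure D3:**
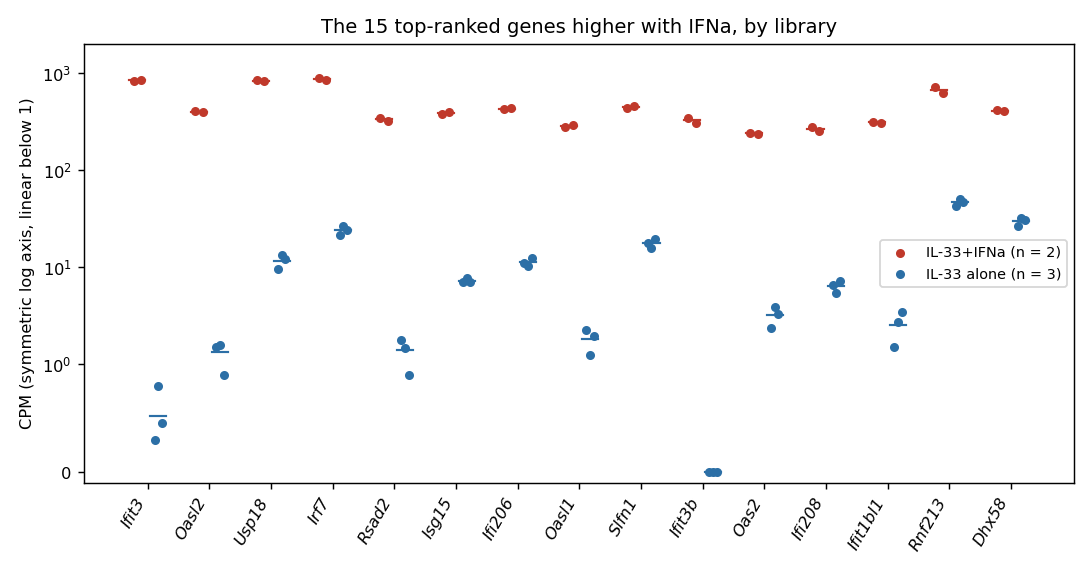
Points are CPM of single libraries on a symmetric log axis, and short lines are group means, for the 15 top-ranked genes called higher, by p (2 IL-33+IFNa libraries in red, 3 IL-33 libraries in blue). In IFNa cultures all 15 genes lie between 234 and 891 CPM, while in IL-33 cultures they run from 0 CPM for Ifit3b to 50.98 CPM for Rnf213.

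Bst2, which encodes tetherin and holds budding virus at the membrane, was at 899.5 and 936 CPM with IFNa, against 61.1, 92.7 and 73.6 CPM with IL-33 alone. Ms4a4c, of a family of membrane proteins, was at 275 and 280.4 CPM with IFNa, against 1.49, 3.76 and 3.31 CPM with IL-33 alone. Isg20, an exonuclease gene, had 620.5 and 608 CPM with IFNa, against 122, 158 and 148 CPM with IL-33 alone. Ly6a, the gene of the surface antigen Sca-1, was at 1993 and 2049 CPM with IFNa, against 414, 701 and 546 CPM with IL-33 alone; its change of 1.87 ± 0.25 had an adjusted p of 0.015, and of 0.101 and 0.108 without IL-33+IFNa culture 1 and 2 and 0.0733 with no filter on low counts.

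Members of 1 gene family did not all move together. Of the interferon-induced transmembrane genes, which block viral entry, Ifitm3 rose, at 182 and 246 CPM with IFNa, against 44.2, 65.2 and 56.6 CPM with IL-33 alone (1.95 ± 0.17), and Ifitm2 fell, at 59.9 and 59.1 CPM with IFNa, against 117, 125 and 128 CPM with IL-33 alone (-1.05 ± 0.10). Ifitm1 was at 2.81 and 16.2 CPM with IFNa, against 25.03, 18.8 and 23.3 CPM with IL-33 alone, with the 2 IFNa libraries far apart and no call; without IL-33+IFNa culture 2 it stood at -2.98 (adjusted p = 5.18e-06), and limma voom gave an adjusted p of 0.0214. Ifi27, an interferon-inducible gene in many tissues, was at 46.98 and 65.1 CPM in the IL-33+IFNa libraries, against 189, 207 and 206 CPM in the IL-33 libraries and was among the 15 top-ranked genes that fell (-1.83 ± 0.12, adjusted p = 7.16e-10). Ifitm2 did not pass in the 56-library fit.

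Most sensors of viral nucleic acid rose, with 14 of 16 tested genes higher and a median of 2.74; the 56-library fit called 12 higher. Ifih1 and Ddx58, the cytosolic RNA sensors MDA5 and RIG-I, were at 160.4 and 145 CPM with IFNa, against 24.4, 25.4 and 20.03 CPM with IL-33 alone and at 418 and 399.8 CPM with IFNa, against 69.9, 88.2 and 64.7 CPM with IL-33 alone. Dhx58, which encodes the related regulator LGP2, was at 416 and 406 CPM in the IL-33+IFNa libraries, against 26.7, 31.8 and 31.02 CPM in the IL-33 libraries (3.78 ± 0.10). In the family that includes the DNA sensor p204, Ifi206 was at 423 and 434 CPM with IFNa, against 11.03, 10.3 and 12.3 CPM with IL-33 alone and Ifi208 at 276 and 254 CPM with IFNa, against 6.56, 5.47 and 7.23 CPM with IL-33 alone. Tlr3, the endosomal receptor for double-stranded RNA, was at 6.93 and 5.88 CPM with IFNa and had no count without it, at least 15.5-fold higher against the floor. The adaptors of these sensors changed less: Sting1 was at 344 and 352 CPM with IFNa, against 275, 264 and 258 CPM with IL-33 alone (0.39 ± 0.08), and Mavs at 58.96 and 61.9 CPM with IFNa, against 71.5, 69.3 and 71.2 CPM with IL-33 alone did not pass (-0.22 ± 0.11, adjusted p = 0.17). Sting1 did not pass in the 56-library fit.

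Guanylate-binding proteins and immunity-related GTPases act on vacuoles that hold microbes, and they are known above all as targets of interferon gamma. Of 17 genes, 11 were called higher, with a median of 0.70; edgeR called 0 lower, while DESeq2, limma voom and edgeR without IL-33 culture 1 each called 2 lower, and the 56-library fit 8 higher and 1 lower. Gbp10 was at 36.1 and 34.4 CPM with IFNa, against 0.894, 2.74 and 1.51 CPM with IL-33 alone (4.29 ± 0.28) and Irgm1 at 690.5 and 710.2 CPM with IFNa, against 159.7, 233 and 191 CPM with IL-33 alone (1.85 ± 0.13). Gbp4 and Gbp9, which share exon bases with each other and with Gbp8, were at 996 and 1006 CPM with IFNa, against 404, 474 and 485 CPM with IL-33 alone and at 244 and 233 CPM with IFNa, against 26.8, 45.8 and 38.7 CPM with IL-33 alone. Gbp2 lay the other way, at 1002 and 1068 CPM in the IL-33+IFNa libraries, against 1418, 2621 and 2192 CPM in the IL-33 libraries. It did not pass (-1.01 ± 0.33, adjusted p = 0.15), although both IFNa libraries were below all 3 without IFNa. IL-33 culture 1 was the lowest of its group for Gbp2, and without it the change was -1.22 (adjusted p = 5.18e-11); it also passed in DESeq2, limma voom and the 56-library fit (adjusted p = 0.0114, 0.000742 and 0.0189). The paralog Gbp2b showed the same order, at 40.4 and 36.4 CPM with IFNa, against 49.9, 117 and 114 CPM with IL-33 alone, and without IL-33 culture 1 it was -1.60 (adjusted p = 1.52e-10), with 0.0472 in DESeq2 and 0.0103 in limma voom. Iigp1 was at 270.3 and 279 CPM with IFNa, against 22.1, 105 and 63.7 CPM with IL-33 alone; it did not pass (2.09 ± 0.70, adjusted p = 0.159), and did without IL-33 culture 1, at 1.69 (adjusted p = 0.0259), and in DESeq2, limma voom and the 56-library fit (adjusted p = 0.0372, 6.46e-05 and 0.00997).

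MHC class I molecules present peptides to CD8 T cells. Of 24 genes of this route 18 were higher with a median of 0.64, and the 56-library fit called 16 higher. The classical heavy chain H2-K1 was at 9895 and 10456 CPM in the IL-33+IFNa libraries, against 4989, 5224 and 5494 CPM in the IL-33 libraries (0.96 ± 0.06, adjusted p = 4.18e-10). Its partner B2m was at 6436 and 7040.3 CPM with IFNa, against 4187, 4634 and 4404 CPM with IL-33 alone. Larger changes were found in nonclassical heavy chains: H2-T22 was at 751 and 771 CPM with IFNa, against 134, 177 and 149.8 CPM with IL-33 alone (2.31 ± 0.10) and H2-Q6 at 1448 and 1407 CPM with IFNa, against 375, 364 and 406 CPM with IL-33 alone (1.90 ± 0.07). These genes are near copies of each other, so reads may have been split between them. Tap1, the peptide transporter, was at 1120.03 and 1087 CPM with IFNa, against 522, 743 and 658 CPM with IL-33 alone (0.78 ± 0.12). It shares exon bases with Psmb9 on the other strand, whose mean was 367 CPM. Nlrc5, the transactivator of class I genes, was at 325 and 315 CPM with IFNa, against 185, 220.2 and 201 CPM with IL-33 alone (0.66 ± 0.09). Calr, Canx, Pdia3 and Psme2 of the list did not pass.

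The chemokine genes Cxcl10, Cxcl11 and Ccl5 rose, and chemokine receptor genes were called in both directions. Of 22 tested genes 6 were higher and 5 lower with a median of -0.07, and the 56-library fit called 4 higher and 1 lower. Cxcl10, a ligand of the receptor Cxcr3, was at 387 and 404 CPM in the IL-33+IFNa libraries, against 7.45, 5.02 and 3.61 CPM in the IL-33 libraries (6.20 ± 0.15, adjusted p = 9.00e-16). Cxcl11 was at 17.2 and 9.36 CPM with IFNa, against 2 counts in all with IL-33 alone, a ratio of 139.7 with a 95% counting interval of 38.1 to 1164. Ccl5 was at 111 and 108 CPM with IFNa, against 20.6, 17.3 and 25.3 CPM with IL-33 alone (2.38 ± 0.14). The receptor gene Cxcr3 itself was at 10.1 and 7.35 CPM with IFNa, against 6.56, 11.7 and 15.4 CPM with IL-33 alone and did not pass (-0.38 ± 0.31, adjusted p = 0.43). Ccr6, found on Th17-like Tregs, was at 138 and 116 CPM with IFNa, against 289.8, 275 and 294 CPM with IL-33 alone (-1.17 ± 0.09). Ccr7, the receptor that guides cells to lymph nodes, was at 46.6 and 70.6 CPM with IFNa, against 20.9, 21.2 and 17.2 CPM with IL-33 alone (1.57 ± 0.17), and Gpr183, an oxysterol receptor that positions lymphocytes, at 216 and 244 CPM with IFNa, against 111, 96.4 and 103 CPM with IL-33 alone (1.16 ± 0.09). Ccr6 and Ccr7 did not pass in the 56-library fit.

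The Treg core genes moved in both directions. Of 19 genes 6 were higher and 5 lower with a median of -0.05, and the 56-library fit called 1 higher and 3 lower. Foxp3, the factor that defines Tregs, was at 563 and 555 CPM in the IL-33+IFNa libraries, against 1171, 1227 and 1226 CPM in the IL-33 libraries. It fell by 1.11 on the log2 scale (SE 0.07, edgeR adjusted p = 2.82e-10), with the libraries of a group close together and no overlap. Foxp3 lies at chrX:7573644-7595245 on the plus strand (mm10, GENCODE M21), and its exons overlap those of Ppp1r3f, Ccdc22 and Flicr, whose reads cannot be told from its own there. Il2ra, the high-affinity chain of the IL-2 receptor, was at 1526 and 1731 CPM in the IL-33+IFNa libraries, against 2680.4, 2641 and 2676 CPM in the IL-33 libraries (-0.71 ± 0.07, edgeR adjusted p = 2.56e-07). Ctla4, the inhibitory receptor that removes CD80 and CD86 from other cells, was at 324 and 307 CPM in the IL-33+IFNa libraries, against 501, 587 and 556 CPM in the IL-33 libraries (-0.80 ± 0.08, adjusted p = 4.86e-07). All 3 of these genes passed in each alternative fit.

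Other core genes rose or did not pass. Ikzf4, which encodes the Foxp3 partner Eos, was at 662 and 650.1 CPM in the IL-33+IFNa libraries, against 339, 305 and 352 CPM in the IL-33 libraries (0.98 ± 0.08, adjusted p = 7.47e-09). Lrrc32, which encodes the GARP protein that holds latent TGF-beta on the surface, was at 631 and 514 CPM with IFNa, against 372, 322 and 366 CPM with IL-33 alone (0.70 ± 0.09), and Tnfrsf18, the receptor GITR, at 1912 and 1965 CPM with IFNa, against 1419, 1247 and 1429.8 CPM with IL-33 alone (0.51 ± 0.07). Ikzf2, which encodes Helios, was at 588 and 559.96 CPM with IFNa, against 710.2, 653 and 628 CPM with IL-33 alone and did not pass (-0.21 ± 0.08, adjusted p = 0.0583). Its edgeR adjusted p was 0.0467 with RLE normalization and 0.0207 with the replicate number as a block. Nrp1 (-0.24 ± 0.09) and Icos (-0.12 ± 0.07) did not pass. For Nrp1 the edgeR adjusted p was 0.0499 with RLE normalization and 0.0236 without IL-33 culture 2. Lrrc32 and Tnfrsf18 did not pass in the 56-library fit.

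**Figure D4:**
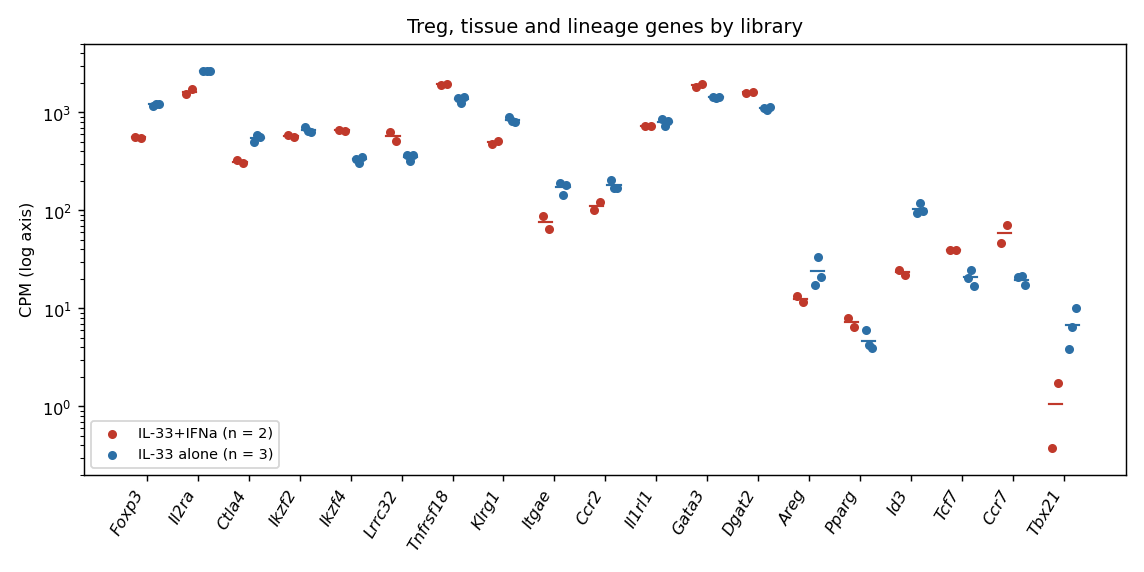
Points are CPM of single libraries on a log axis and short lines are group means, with the 2 IL-33+IFNa libraries in red left of the 3 IL-33 libraries in blue. Foxp3, Il2ra, Ctla4, Ikzf2, Klrg1, Itgae, Ccr2, Il1rl1, Areg, Id3 and Tbx21 are lower in both IFNa libraries than in all 3 others. Ikzf4, Lrrc32, Tnfrsf18, Gata3, Dgat2, Pparg, Tcf7 and Ccr7 are higher. Among these genes Ikzf2, Il1rl1 and Pparg were not called.

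Genes of the VAT-Treg programme were likewise divided, with 5 of 20 higher and 6 lower and a median of -0.08. The 56-library edgeR fit called 0 of the 20, of which 1 was higher and 2 lower at an unadjusted p under 0.05. Klrg1, a receptor of terminally differentiated cells, was at 482 and 513 CPM with IFNa, against 893, 811 and 794 CPM with IL-33 alone (-0.74 ± 0.08, adjusted p = 5.03e-07). Itgae, the gene of the integrin CD103, was at 88.3 and 64.97 CPM with IFNa, against 189, 145 and 183 CPM with IL-33 alone (-1.18 ± 0.14), and Ccr2, a receptor used for entry into inflamed fat, at 102 and 121 CPM with IFNa, against 204, 168 and 168 CPM with IL-33 alone (-0.68 ± 0.11). Areg was at 13.3 and 11.8 CPM with IFNa, against 17.3, 33.9 and 20.8 CPM with IL-33 alone (-0.96 ± 0.26, adjusted p = 0.0142). Its adjusted p was 0.054, 0.138 and 0.0783 without IL-33+IFNa culture 1, IL-33+IFNa culture 2 and IL-33 culture 2. Higher with IFNa were Gata3, the factor that sustains the IL-33 receptor, at 1818 and 1968 CPM with IFNa, against 1436, 1397 and 1449 CPM with IL-33 alone (0.41 ± 0.07), Dgat2, the last enzyme of triglyceride synthesis, at 1586 and 1633 CPM with IFNa, against 1122, 1052 and 1125 CPM with IL-33 alone (0.55 ± 0.07), and Irf4, a driver of effector Tregs, at 61.6 and 72.3 CPM with IFNa, against 42.5, 40.1 and 43.1 CPM with IL-33 alone (0.68 ± 0.12). Il1rl1 was at 721 and 720.4 CPM with IFNa, against 856, 727 and 809 CPM with IL-33 alone and did not pass (-0.15 ± 0.08, adjusted p = 0.209). Pparg did not pass either (0.62 ± 0.32, adjusted p = 0.187), although both IFNa libraries were above all 3 others, and nor did Il10, at 8.05 and 13.4 CPM with IFNa, against 11.2, 23.8 and 9.34 CPM with IL-33 alone (-0.46 ± 0.44, adjusted p = 0.527). Cd36, a fatty acid transporter of VAT Tregs in mice, had too few counts to be tested, at most 0.151 CPM in any library. Klrg1, Itgae, Ccr2, Areg, Gata3, Dgat2 and Irf4 did not pass in the 56-library fit.

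Among transcription factors of effector Tregs, 9 of 19 were higher and 4 lower, with a median of 0.24; the 56-library fit called 1 higher. Tbx21, which encodes T-bet and marks Tregs of type 1 inflammation, was at 0.374 and 1.74 CPM in the IL-33+IFNa libraries, against 3.87, 6.50 and 10.1 CPM in the IL-33 libraries. The groups did not overlap at these low levels (-2.56 ± 0.54, adjusted p = 0.00208), and the change was -1.97 and -4.12 without IL-33+IFNa culture 1 and 2. Zeb2 was at 25.1 and 22.3 CPM with IFNa, against 10.3, 13.3 and 10.8 CPM with IL-33 alone (1.03 ± 0.20). Id2 was at 52.97 and 59.6 CPM with IFNa, against 82.2, 82.6 and 76.3 CPM with IL-33 alone (-0.51 ± 0.11), and Id3, a related inhibitor of E proteins that marks less differentiated T cells, at 24.5 and 22.1 CPM in the IL-33+IFNa libraries, against 93.3, 118 and 98.5 CPM in the IL-33 libraries (-2.16 ± 0.14, adjusted p = 2.13e-10). In the list of lymphoid and resting T cell genes that holds Id3, 3 of 11 were higher and 1 lower, against 0 higher (2 at an unadjusted p under 0.05) and 1 lower in the 56-library edgeR fit: Tcf7, the gene of the stem-like factor TCF-1, was at 39.3 and 39.2 CPM with IFNa, against 20.6, 24.98 and 16.9 CPM with IL-33 alone (0.91 ± 0.17), and Ccr7 is described above. The third was Satb1, at 28.1 and 31.8 CPM with IFNa, against 24.4, 12.9 and 17.5 CPM with IL-33 alone, with an adjusted p of 0.0213, and of 0.148, 0.0837 and 0.0863 without IL-33+IFNa culture 2, IL-33 culture 2 and IL-33 culture 3. Tbx21, Zeb2, Id2, Tcf7 and Satb1 did not pass in the 56-library fit.

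Several inhibitory and costimulatory receptors rose. Of 18 genes 10 were higher and 2 lower (1 lower without IL-33+IFNa culture 1 or IL-33 culture 3) with a median of 0.40; the 56-library fit called 3 higher and 1 lower. Pdcd1, which encodes PD-1, was at 238 and 267 CPM with IFNa, against 149, 117 and 139 CPM with IL-33 alone (0.90 ± 0.10), and its ligand gene Cd274 at 96.2 and 108 CPM with IFNa, against 62.3, 61.5 and 64.4 CPM with IL-33 alone (0.70 ± 0.11). Havcr2, which encodes TIM-3, was at 96.95 and 94.4 CPM with IFNa, against 54.1, 47.8 and 38.7 CPM with IL-33 alone (1.03 ± 0.13). Lag3 was at 15.5 and 13.5 CPM with IFNa, against 7.15, 6.16 and 5.27 CPM with IL-33 alone (1.22 ± 0.25), and Cd200 at 31.6 and 45.6 CPM with IFNa, against 12.4, 14.6 and 13.9 CPM with IL-33 alone (1.51 ± 0.18). Of the TNF receptors and ligands 10 of 18 were higher and 1 lower with a median of 0.28, with 6 higher without IL-33+IFNa culture 2 and 2 in the 56-library fit. Tnfsf8, the CD30 ligand, was at 142 and 123 CPM with IFNa, against 34.7, 26.7 and 38.8 CPM with IL-33 alone (1.99 ± 0.13), and its receptor Tnfrsf8 at 809 and 843 CPM with IFNa, against 528, 514 and 533 CPM with IL-33 alone (0.65 ± 0.07). Tnfsf11, the ligand RANKL, fell, at 4.68 and 4.28 CPM with IFNa, against 12.96, 12.5 and 15.7 CPM with IL-33 alone (-1.61 ± 0.27). Pdcd1, Cd274, Havcr2, Lag3, Tnfrsf8 and Tnfsf11 did not pass in the 56-library fit.

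Of 16 NF-kB genes 10 were higher with a median of 0.41, and the 56-library fit called 4 higher. Relb and Nfkb2, the 2 subunits of the noncanonical factor, were at 179.7 and 163 CPM with IFNa, against 117, 114 and 112 CPM with IL-33 alone (0.58 ± 0.09) and at 311 and 306 CPM with IFNa, against 216, 217 and 224 CPM with IL-33 alone (0.50 ± 0.08). Of 16 genes of the IL-2 receptor and STAT5, 4 were higher (2 without IL-33+IFNa culture 1 or IL-33 culture 3) and 3 lower, and the 56-library fit called 2 in each direction. Stat5a and Stat5b, the factors that IL-2 activates, were at 225 and 239.8 CPM with IFNa, against 128, 113 and 125 CPM with IL-33 alone (0.93 ± 0.09) and at 215 and 181 CPM with IFNa, against 122, 92.2 and 122 CPM with IL-33 alone (0.82 ± 0.12), while Jak3, the kinase of the common gamma chain, was at 224 and 209 CPM with IFNa, against 329, 303 and 295 CPM with IL-33 alone (-0.51 ± 0.08). Stat5a shares exon bases with Stat3 on the other strand, whose mean was 307 CPM, above Stat5a in every library. The STAT5 target Cish (0.16 ± 0.07) and Bcl2 (0.24 ± 0.11) did not pass.

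Suppressive mediators, T cell receptor signalling and integrins were mixed. Of 19 suppressive mediators 4 were higher and 3 lower; the 56-library fit called 1 lower. Gzmb was at 1921 and 2082 CPM with IFNa, against 1999, 2148 and 2119 CPM with IL-33 alone and did not pass (-0.06 ± 0.07), and Lgals1, the gene of galectin-1, was at 529 and 587 CPM with IFNa, against 950.1, 1023 and 971 CPM with IL-33 alone (-0.81 ± 0.08). Of 21 T cell receptor signalling genes 6 were higher and 3 lower (3 and 2 in the 56-library fit); the adaptor Lat was at 244 and 242 CPM with IFNa, against 382, 401 and 354 CPM with IL-33 alone (-0.64 ± 0.08). Of 13 integrin genes, with Cd44, 2 were higher and 5 lower with a median of -0.45, and 1 was called in each direction in the 56-library fit. Without IL-33+IFNa culture 1, IL-33 culture 2 or IL-33 culture 3 the count of higher genes was 1, and without IL-33 culture 1 the count of lower genes was 3. Itgb2, the common chain of leukocyte integrins, was at 515 and 579 CPM with IFNa, against 819.9, 795 and 814 CPM with IL-33 alone (-0.57 ± 0.08). Itgb7, the partner of Itgae, was at 923 and 357 CPM in the IL-33+IFNa libraries, against 1783, 1834 and 2216 CPM in the IL-33 libraries. It did not pass (-1.61 ± 0.53, adjusted p = 0.154), and the 2 IFNa libraries lay far apart; without IL-33+IFNa culture 1 or 2 the change was -2.45 or -1.07 (adjusted p = 1.43e-10 and 3.15e-06), and it passed in DESeq2 and limma voom (adjusted p = 0.00928 and 2.02e-05). Lgals1 did not pass in the 56-library fit.

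The helper T cell effector list held cytokine, receptor and transcription factor genes, and the cytokine genes named here were at low levels. Of 15 tested genes 5 were higher (3 without IL-33+IFNa culture 2) and 2 lower. The 2 lower genes were the receptor gene Ccr6 and the factor gene Tbx21, with values given above. The 56-library edgeR fit called 0 of the 15, with 4 higher and 2 lower at an unadjusted p under 0.05. Ifng had no more than 0.456 CPM in any library and was not tested. Il4 was at 6.55 and 5.61 CPM with IFNa, against 1.04, 1.03 and 1.96 CPM with IL-33 alone (2.18 ± 0.43). Il17rb, Il5 and Arg1, which type 2 innate lymphoid cells also express, were called higher. Il17rb was at 20.03 and 18.3 CPM with IFNa, against 10.9, 8.78 and 8.43 CPM with IL-33 alone (1.03 ± 0.21). Its exons share bases with Actr8 on the other strand, whose mean was 62.7 CPM, above that of Il17rb in every library. Il5 was at 16.3 and 14.7 CPM with IFNa, against 5.07, 6.73 and 12.9 CPM with IL-33 alone (adjusted p = 0.041); its adjusted p was 0.0622 in DESeq2 and 0.157, 0.111, 0.0988 and 0.154 without IL-33+IFNa culture 1, IL-33+IFNa culture 2, IL-33 culture 1 and IL-33 culture 2. Arg1 was at 1.68 and 2.94 CPM with IFNa, against 0.894, 0.570 and 0.452 CPM with IL-33 alone (adjusted p = 0.0304); its adjusted p was 0.126 in DESeq2, 0.0749 with no filter, and 0.321, 0.0863 and 0.0979 without IL-33+IFNa culture 2, IL-33 culture 2 and IL-33 culture 3. The list of 7 innate lymphoid genes that holds them summed to 758 to 761 CPM with IFNa, against 745 to 877 CPM with IL-33 alone, nearly all from Il1rl1. Il13 of that list was at 0.374 and 1.07 CPM with IFNa, against 3.72, 1.71 and 0.452 CPM with IL-33 alone and did not pass (-1.34 ± 0.77, adjusted p = 0.244), and Rxrg and Hs3st1 were at or near 0. The part of such cells in these values was not tested. Il4, Il17rb, Il5 and Arg1 did not pass in the 56-library fit.

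Glycolysis and hypoxia genes fell. Of 24 tested genes 21 were lower with a median of -0.65, and the 56-library fit called 16 lower. Slc2a3, the high-affinity glucose transporter GLUT3, was at 49.4 and 44.1 CPM in the IL-33+IFNa libraries, against 128, 132 and 131 CPM in the IL-33 libraries (-1.49 ± 0.11, adjusted p = 1.18e-09). Tpi1 and Pgk1, enzymes that follow the splitting of the sugar, were at 844 and 932 CPM with IFNa, against 1833, 1867 and 1922 CPM with IL-33 alone and at 214 and 239.8 CPM with IFNa, against 451, 452 and 459.8 CPM with IL-33 alone. Ldha, which turns pyruvate into lactate, was at 3162 and 3442 CPM with IFNa, against 4899, 4909.9 and 5089 CPM with IL-33 alone (-0.59 ± 0.07), and Slc16a3, the lactate exporter MCT4, at 89.5 and 88.5 CPM in the IL-33+IFNa libraries, against 253, 271 and 291 CPM in the IL-33 libraries (-1.61 ± 0.09, adjusted p = 4.80e-11). Bnip3, a mitophagy receptor and target of the hypoxia factor, was at 39.9 and 48.5 CPM with IFNa, against 137, 135 and 154 CPM with IL-33 alone (-1.67 ± 0.12). The gene of that factor, Hif1a, did not pass, nor did Hk1 and Pfkfb3, as the plot of this list shows.

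**Figure D5:**
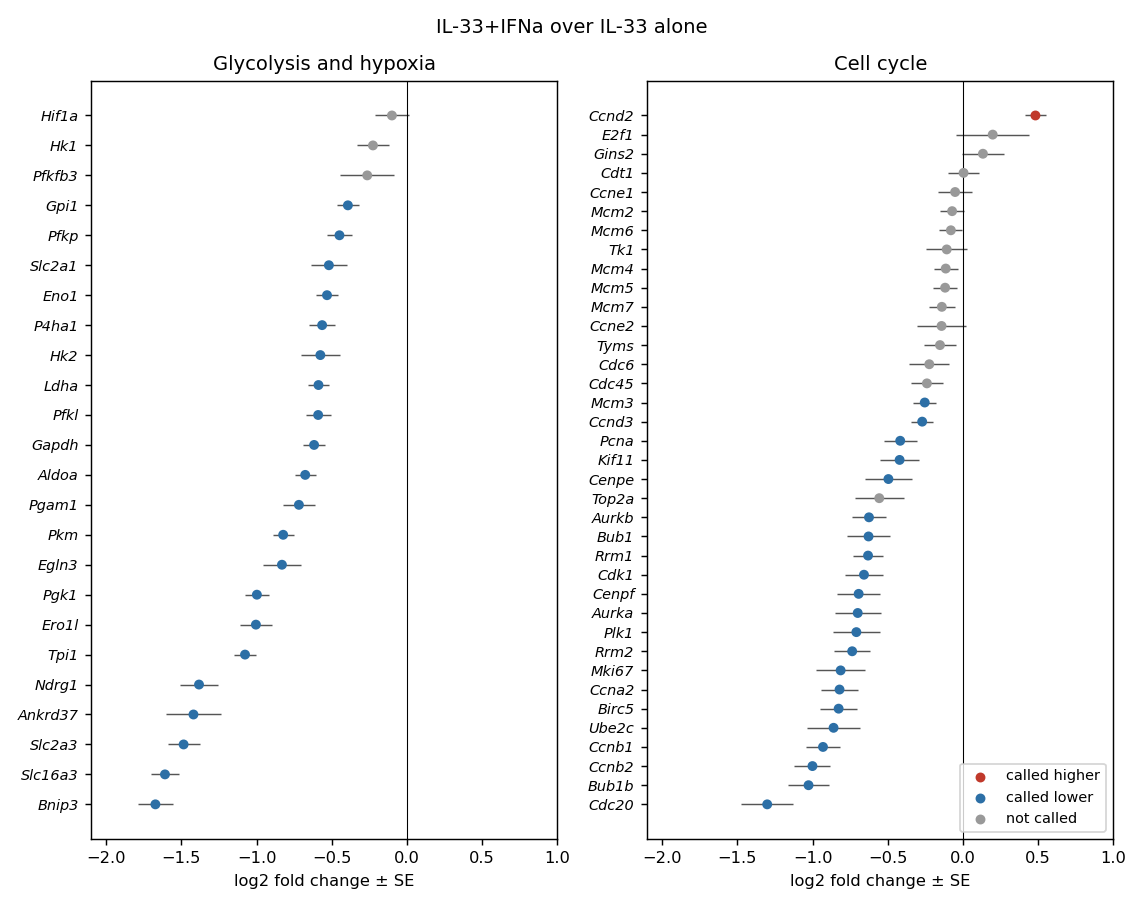
Points are log2 fold changes (IL-33+IFNa over IL-33 alone) of the tested genes of both lists and bars are standard errors; called genes are coloured. In glycolysis and hypoxia 21 of 24 genes are called lower, and in the cell cycle 21 of 37, with mitotic genes such as Cdc20 at the low end and replication genes such as Mcm2 near 0.

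Among genes of mitochondrial respiration, those called were lower. Of 72 nuclear genes of oxidative phosphorylation 28 were lower with a median of -0.20. The number called lower was 9 without IL-33+IFNa culture 1, 15 without IL-33 culture 2, 15 without IL-33 culture 3 and 4 in the 56-library fit. Uqcrh, a subunit of complex III, was at 165 and 181 CPM with IFNa, against 273, 263 and 263 CPM with IL-33 alone (-0.62 ± 0.09). Of 11 tested genes of mitochondrial DNA 7 were lower with a median of -0.50, and 4 without IL-33+IFNa culture 1 and in the 56-library fit. mt-Cytb was at 835 and 1027 CPM with IFNa, against 1789.6, 1678 and 1895 CPM with IL-33 alone (-0.94 ± 0.09), whereas mt-Co1 was at 3176 and 3243 CPM with IFNa, against 3522, 3149 and 3434 CPM with IL-33 alone and did not pass. Mitochondrial transcripts made up 0.763% and 0.827% of counts in the IL-33+IFNa libraries, against 1.16%, 1.05% and 1.15% in the IL-33 libraries; the part of library quality in this difference was not tested.

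Sterol and fatty acid synthesis genes fell in 13 of 27 cases, with a median of -0.41; the 56-library fit called 1 lower. Hmgcs1 and Cyp51 encode enzymes of cholesterol synthesis. Hmgcs1 was at 55.03 and 67.9 CPM with IFNa, against 99.7, 88.05 and 100.4 CPM with IL-33 alone (-0.64 ± 0.12). Cyp51 was at 136 and 145 CPM with IFNa, against 199, 241 and 208 CPM with IL-33 alone (-0.62 ± 0.10). Cyp51 shares exon bases with Akap9 on the other strand, whose mean was 84.9 CPM. Srebf2, the regulator of the pathway, did not pass (-0.22 ± 0.09). Of 18 fatty acid oxidation genes 3 were lower (1 without either IL-33+IFNa culture or without IL-33 culture 2 or 3), and the rate-limiting Cpt1a did not pass (-0.18 ± 0.10). Of 17 genes of fatty acid uptake and storage 4 were higher and 2 lower (1 lower without IL-33+IFNa culture 2): Fabp5, a fatty acid carrier, was at 419.6 and 423 CPM with IFNa, against 317, 311 and 258 CPM with IL-33 alone (0.51 ± 0.09), and Plin2, a lipid droplet protein, at 151 and 142 CPM with IFNa, against 115, 117 and 102 CPM with IL-33 alone (0.40 ± 0.10). Of the uptake and storage genes 23.5% were higher and 11.8% lower, against 10.6% and 11.0% over all genes tested. The 56-library edgeR fit called 0 genes of the oxidation list and 0 of the uptake and storage list. At an unadjusted p under 0.05 it had 4 oxidation genes and 2 uptake and storage genes lower. Of 5 oxysterol and efflux genes Lpcat3 was lower (-0.55 ± 0.10), as it was in the 56-library fit. It was at 98.8 and 114 CPM with IFNa, against 149, 162 and 159 CPM with IL-33 alone. Lpcat3 shares exon bases with Emg1 on the other strand, whose mean was 200 CPM. Hmgcs1, Cyp51, Fabp5 and Plin2 did not pass in the 56-library fit.

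Many cell cycle genes fell. Of 37 genes 21 were lower and 1 higher with a median of -0.42, while the 56-library edgeR fit called 1 higher and 0 lower, with 5 lower at an unadjusted p under 0.05. Genes of mitosis were among those that fell: Cdc20, the activator of the anaphase-promoting complex, was at 72.2 and 68.6 CPM in the IL-33+IFNa libraries, against 136, 213 and 170.4 CPM in the IL-33 libraries (-1.30 ± 0.17, adjusted p = 0.000517), Ccnb1 at 69.4 and 72.9 CPM with IFNa, against 119, 156 and 132 CPM with IL-33 alone (-0.93 ± 0.11) and Bub1b at 52.8 and 56.3 CPM with IFNa, against 97.7, 134 and 101.2 CPM with IL-33 alone (-1.03 ± 0.13). Cdc20 shares exon bases with Elovl1 on the other strand, whose mean was 173 CPM. Mki67, the proliferation marker, was at 109 and 85.1 CPM with IFNa, against 152, 208 and 149.5 CPM with IL-33 alone (-0.81 ± 0.17, adjusted p = 0.00653). Rrm2, a subunit of the enzyme that makes deoxynucleotides, was at 370.4 and 394 CPM with IFNa, against 532, 745 and 634 CPM with IL-33 alone (-0.74 ± 0.12). The replication helicase genes Mcm2 (-0.07 ± 0.08) and Mcm5 (-0.12 ± 0.08) did not pass. Ccnd2, the cyclin of entry into the cycle, was the gene that rose, at 1474 and 1567 CPM with IFNa, against 1072, 1067 and 1128 CPM with IL-33 alone (0.48 ± 0.07). Cdkn1a, the p53 target that stops the cycle, was at 371 and 378 CPM with IFNa, against 337, 398 and 419 CPM with IL-33 alone and did not pass (-0.04 ± 0.09, adjusted p = 0.812); of 13 p53 target genes 3 were higher (1 without IL-33+IFNa culture 2) and 2 lower (1 without IL-33+IFNa culture 2, IL-33 culture 1 or IL-33 culture 3), and the 56-library edgeR fit called 0 higher, as at an unadjusted p under 0.05, and 1 lower. Myc was at 835 and 878 CPM with IFNa, against 564, 664 and 619 CPM with IL-33 alone (0.48 ± 0.08). Over all genes tested 10.6% were higher and 11.0% lower. Of 28 genes of Myc and ribosome biogenesis 4 were higher (14.3%) and 3 lower (10.7%), with a median of -0.02. Higher calls there were 1 without IL-33+IFNa culture 2 and 2 without IL-33 culture 1, lower calls 1 without IL-33 culture 3, and the 56-library edgeR fit called 0, with 2 in each direction at an unadjusted p under 0.05. Of the 76 cytosolic ribosomal protein genes 7 were higher (9.21%, against 10.6% over all genes tested), with a median of 0.11. Without IL-33 culture 1, 2 or 3 the number called higher was 4, 17 or 0. The 56-library edgeR fit called 0 of them, with 1 lower at an unadjusted p under 0.05. Cdc20, Ccnb1, Bub1b, Mki67, Rrm2 and Myc did not pass in the 56-library fit.

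Genes of endoplasmic reticulum stress moved in both directions, and those of the integrated stress response were among the ones that rose. Of 16 genes 6 were higher and 5 lower (3 lower without IL-33+IFNa culture 1) with a median of 0.02, and the 56-library fit called 2 in each direction. Ddit3, which encodes CHOP, was at 125 and 131 CPM in the IL-33+IFNa libraries, against 23.4, 16.7 and 21.4 CPM in the IL-33 libraries (2.65 ± 0.13, adjusted p = 3.48e-12). Its inducer Atf4 was at 256 and 307 CPM with IFNa, against 145, 162 and 162 CPM with IL-33 alone (0.85 ± 0.09), and the Atf4 targets Asns and Trib3 at 148 and 158 CPM with IFNa, against 46.04, 52.8 and 48.9 CPM with IL-33 alone (1.63 ± 0.10) and at 114 and 128 CPM with IFNa, against 40.1, 38.8 and 43.4 CPM with IL-33 alone (1.57 ± 0.11). The chaperone gene Hspa5 was at 1250.1 and 1475 CPM with IFNa, against 1092, 1195 and 1065 CPM with IL-33 alone (0.29 ± 0.08, adjusted p = 0.0132, and 0.26 and 0.105 without IL-33+IFNa culture 2 and IL-33 culture 3). Other chaperone genes included Hsp90b1, at 694 and 782 CPM with IFNa, against 1041, 1121 and 984 CPM with IL-33 alone (-0.51 ± 0.08), and Sdf2l1, at 112 and 88.9 CPM with IFNa, against 138, 157 and 153 CPM with IL-33 alone (-0.57 ± 0.11), both lower, and Xbp1, the folding-response factor, at 272 and 202 CPM with IFNa, against 338, 326 and 363 CPM with IL-33 alone (-0.53 ± 0.11). The kinase gene Eif2ak2 (PKR), which is both an interferon effector and an initiator of the integrated stress response, was at 159 and 165 CPM with IFNa, against 55.7, 67.7 and 42.9 CPM with IL-33 alone (1.54 ± 0.14). Of 28 cell death genes 9 were higher and 2 lower (4 lower with RLE normalization) with a median of 0.23, and 2 higher in the 56-library fit. Casp4 (caspase-11), a sensor of bacterial lipopolysaccharide, was at 66.8 and 59.6 CPM with IFNa, against 21.8, 17.9 and 20.3 CPM with IL-33 alone (1.66 ± 0.14), and Mlkl, the effector of necroptosis, at 71.5 and 79.7 CPM with IFNa, against 22.5, 30.8 and 25.4 CPM with IL-33 alone (1.52 ± 0.14). In the immediate early and heat shock list 6 of 18 genes were higher and 2 lower (1 lower without IL-33+IFNa culture 2, IL-33 culture 2 or IL-33 culture 3), and the 56-library fit called 1 higher; Atf3, a stress-induced repressor, was at 6.55 and 7.08 CPM with IFNa, against 1.19, 1.48 and 1.51 CPM with IL-33 alone (2.27 ± 0.39), and Fos at 16.8 and 15.6 CPM with IFNa, against 28.5, 27.3 and 47.9 CPM with IL-33 alone (-1.08 ± 0.24, adjusted p = 0.0651 without IL-33+IFNa culture 2). Asns, Trib3, Hspa5, Sdf2l1, Xbp1, Mlkl, Atf3 and Fos did not pass in the 56-library fit.

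Outside these lists, the 15 genes that fell with the smallest p included these 8. Anxa2, which encodes the membrane-binding annexin A2, was first, at 147 and 163 CPM in the IL-33+IFNa libraries, against 683, 767 and 758 CPM in the IL-33 libraries (-2.25 ± 0.09, adjusted p = 6.02e-14). S100a4 was at 67.2 and 61.8 CPM with IFNa, against 267, 277 and 251 CPM with IL-33 alone (-2.04 ± 0.10), and S100a6 at 323 and 381 CPM with IFNa, against 978, 1096 and 1031 CPM with IL-33 alone (-1.55 ± 0.09); both are small calcium-binding proteins that are high in effector T cells. Hsd11b1, the enzyme that regenerates active glucocorticoid, was at 63.5 and 61.9 CPM in the IL-33+IFNa libraries, against 202, 190.1 and 211 CPM in the IL-33 libraries (-1.68 ± 0.10, adjusted p = 4.14e-11). Lrrc25, a leucine-rich repeat membrane protein, was at 20.03 and 19.9 CPM with IFNa, against 99.7, 129 and 116 CPM with IL-33 alone (-2.53 ± 0.14), and Csn2, the milk protein beta-casein and a STAT5 target in the mammary gland, at 14.2 and 18.6 CPM with IFNa, against 99.97, 142 and 117 CPM with IL-33 alone (-2.85 ± 0.17). Fam162a, a hypoxia-inducible gene, was at 144 and 161 CPM with IFNa, against 367, 371 and 375 CPM with IL-33 alone (-1.28 ± 0.09). Pigz, a mannosyltransferase of membrane anchors, was at 68.1 and 62.7 CPM with IFNa, against 166, 167 and 179 CPM with IL-33 alone (-1.39 ± 0.10). For each of these 8 genes the groups did not overlap, as the rule that chose them required. Pigz did not pass in the 56-library fit.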

How the data were processed

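RNA was measured by bulk sequencing of 1000 sorted cells per library. Per the labels' protocols, poly(A) RNA was turned into cDNA, amplified, fragmented with a Nextera XT kit, taken through 18 PCR cycles and sequenced as paired reads of 38 bases. The deposited table holds counts of reads for each gene symbol, which the authors made with STAR 2.7.3a and featureCounts on mm10, per the submitters' processing notes. The annotation used for counting, its strand setting and its treatment of reads with several matches were not given in the sources used here. Of 55011 symbols 52936 (96.2%) matched GENCODE M21 positions in mm10.

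Groups came from the titles, and 0 columns lacked a sample. Counts of the 5 cultures were fitted alone in R 4.3.3 with edgeR 4.0.16 (TMM, filterByExpr by group, robust quasi-likelihood test, no covariate), with p adjusted over all 12604 genes. Standard errors are the log2 fold change divided by the square root of F. CPM use the TMM-scaled library sizes. The alternatives tried were DESeq2 1.42.0, RLE normalization, no filter, limma 3.58.1 voom with quality weights, all 56 libraries, the replicate number as a block, stricter thresholds and leaving out each library. The code was tested on simulated counts.

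The members and gene lists were chosen with earlier results of these data known. Named were, per direction, the 15 called genes of smallest p that changed at least 2-fold, did not overlap between groups and averaged a log2 CPM of 3 or more, without ribosomal protein genes, receptor segments, pseudogenes or predicted genes; the 5 with the smallest p of each list; and a fixed set of 29 genes. Some genes that the rule names are summarised in counts, and a few are not reported here. Others were named after their values were seen (Irf1, Irf8, Jak1, Tyk2, Mx1, Ifi44, Bst2, Ms4a4c, Isg20, Ly6a, the Ifitm genes, Ifih1, Ddx58, Tlr3, Sting1, Mavs, Gbp2, Gbp2b, Iigp1, B2m, Tap1, Nlrc5, Nrp1, Icos, Id2, Cd274, Lag3, Tnfsf11, Cish, Gzmb, Itgb7, Ldha, mt-Co1, Srebf2, Cpt1a, Rrm2, Mcm2, Mcm5, Hspa5, Hsp90b1, Sdf2l1, Eif2ak2, Fos, Arg1, Cd68, Cd79b, Cd8b1, Cdc20, Ighm, Il5, Il13, Ly6g, Pecam1 and Zbtb46). Calr, Canx, Pdia3, Psme2, Hif1a, Hk1 and Pfkfb3 were also named outside the rule, as members of their lists that did not pass. Of the gene list symbols 1 was missing from the table.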

Additional observations from a re-analysis of the deposited data

How the results depend on the processing

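In the edgeR fit 2732 genes were called, 1342 higher and 1390 lower. With all 56 libraries in 1 fit these counts were 720, 422 and 298; at an adjusted p under 0.01 they were 1660, 827 and 833, and with at least a 2-fold change 808, 381 and 427. Leaving out each library in turn gave 1913 to 2632 calls, 947 to 1297 higher and 966 to 1335 lower; where 1 IL-33+IFNa library remained, it was assumed to vary like the IL-33 libraries. RLE normalization, no filter, DESeq2 and limma voom gave 2287 to 2723 calls. Of 228 named genes that were called, 111 kept their call in every alternative, 117 lost it in at least 1 and 0 changed direction. Of the named genes not called, 12 gained a call in at least 1 alternative. Genes not called that changed sign were Il10 (-0.901 to 0.0839 as single libraries were left out), Cdkn1a (0.0307 with the replicate number as a block, -0.131 to 0.0225 with libraries left out), Jak1 (-0.0122 with 56 libraries, -0.0804 to 0.108 with libraries left out) and Tyk2 (-0.0280 to 0.277 with libraries left out); the cause was not tested. Equal replicate numbers did not pair the libraries by any label, and their deviations from the group means correlated at 0.0328 and 0.0445. With the replicate number as a block 2179 genes were called, 1059 higher and 1120 lower, and Mki67 had an adjusted p of 0.0615. The smallest detectable level was 0.342 to 0.562 CPM, which limits the genes near 0.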
